A study of Mus musculus with 7 samples.

Results

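Matricellular proteins are secreted glycoproteins that sit in the extracellular matrix and change how cells adhere to it, and fibronectin is the adhesive matrix protein on which many of them assemble. The genes of 9 matricellular and matrix-associated proteins (Sparc, Smoc2, Tnc, Postn, Aebp1, Thbs1, Thbs2, Ctgf and Cyr61) and of fibronectin (Fn1) were chosen by their symbols in the GENCODE annotation of GRCm38, and all 10 were found among the 55487 genes of the count table. In that annotation Ctgf is named Ccn2 and Cyr61 is named Ccn1. The RNA came from precision-cut liver slices (PCLS), thin discs of liver kept alive in medium, from healthy adult male Balb/c mice. It was taken on day 3 of culture and gave 3 libraries from slices in regular medium (CTR) and 4 from slices in the same medium with 2.5 mM valproic acid (VPA), an inhibitor of class I histone deacetylases. Both groups had been sliced and punched, in the study's methods already in medium with or without VPA, and no uncultured liver was analysed here, so every value is a level in cultured slices. The comparison asked how far VPA, given to hold back the fibrogenic response that slicing sets off, was accompanied by other levels of these genes.

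In injured liver, matricellular genes are transcribed mainly by hepatic stellate cells, which turn into matrix-producing myofibroblasts when activated, and by portal fibroblasts and endothelial cells. Fibronectin differs in that hepatocytes also make it, as the soluble plasma form, while mesenchymal cells make the cellular form that is laid down as fibrils. The CCN proteins CTGF and CYR61 are encoded by immediate early genes that respond to the transcriptional coactivators YAP and TAZ and to serum response factor, and CTGF also to TGF-beta.

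No member passed the test across all genes with edgeR, and 3 of the 10 were lower in every VPA library than in every CTR library, as were 7.41% of all genes tested. These were Sparc and Tnc, fitted at 2.06 and 2.26 times more in CTR, and Smoc2, which was listed at 0 in all VPA libraries. Fn1, Ctgf and Cyr61 lay at overlapping levels in both groups, as did Thbs1, Thbs2, Postn and Aebp1.

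The sequences before the transcription start are shown for Sparc and Tnc, which were lower in all VPA libraries, and for Cyr61, which was not. RefSeq gave windows for 6 members, 2 each for Tnc and Postn, in the build GRCm38.p6, and the 250 bases before the start are printed 5′ to 3′ on the strand of the gene. The Sparc window is chr11:55420081-55420330 on the minus strand, inside the gene as GENCODE draws it. The Tnc window is chr4:64047016-64047265 on the minus strand, just before the outermost start of the gene. The Cyr61 window is chr3:145649986-145650235 on the minus strand. Capitals mark matches, on either strand, to CATTCC, which TEAD factors, the partners of YAP, bind, to TGANTCA, which AP-1 binds, to the CArG box of serum response factor, to GGGCGG, which SP1 and KLF factors bind, or to TATAAA, the core of the box that positions the start.
Sparc: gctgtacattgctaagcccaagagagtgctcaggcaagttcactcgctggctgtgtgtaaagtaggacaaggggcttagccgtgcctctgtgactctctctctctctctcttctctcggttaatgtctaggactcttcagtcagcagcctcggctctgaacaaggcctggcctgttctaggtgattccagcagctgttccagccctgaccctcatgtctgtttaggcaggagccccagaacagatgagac
Tnc: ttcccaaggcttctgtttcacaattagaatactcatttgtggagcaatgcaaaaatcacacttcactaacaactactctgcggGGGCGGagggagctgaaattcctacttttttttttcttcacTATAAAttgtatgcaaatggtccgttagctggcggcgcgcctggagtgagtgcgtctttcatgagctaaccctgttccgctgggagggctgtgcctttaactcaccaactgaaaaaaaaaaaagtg
Cyr61: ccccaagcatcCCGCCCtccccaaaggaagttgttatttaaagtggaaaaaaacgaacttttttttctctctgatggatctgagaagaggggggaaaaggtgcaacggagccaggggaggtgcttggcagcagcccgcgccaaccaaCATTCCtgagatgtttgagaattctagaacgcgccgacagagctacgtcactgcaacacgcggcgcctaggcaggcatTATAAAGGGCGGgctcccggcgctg

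The Sparc window held no match to any of the 5 motifs. In the Tnc window GGGCGG began 167 bases and TATAAA 126 bases before the start, and in the second Tnc window, of a start further inside the gene, the same letters lay 246 and 205 bases before it. The Cyr61 window held CATTCC 103 bases before the start, TATAAA 25 bases before it and GGGCGG at 239 and at 19 bases before it, the last directly after TATAAA. Among the other members with a window, Postn held TATAAA 26 bases before the start in the one window and no match in the other, Thbs2 held TATAAA 126 bases before the start, and Aebp1 held none of the 5. Of all 32851 promoter windows of this length, 12.6% held CATTCC, 6.75% TGANTCA, 1.47% the CArG box, 32.7% GGGCGG and 12.4% TATAAA. A match describes letters in a window and is not a measured binding site.

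The libraries held 1400887 to 4773750 counts on genes, 1743675 to 4773750 in CTR and 1400887 to 3102450 in VPA. Reads came from the 3′ end of polyadenylated RNA, where 1 transcript should give about the same number of reads whatever its length. Levels of different genes were therefore compared without dividing by length, and whether this holds in these counts was not tested. Levels are given as CPM, with library sizes normalised by TMM, and 3 counts, the limit that a count of 0 allows, corresponded to 0.591 to 2.41 CPM depending on the library. These limits cover counting error only. Between 17744 and 19756 genes had a count in a CTR library and between 14359 and 16761 in a VPA library. The study's methods count a different mouse liver as 1 biological repeat, while the labels tie no library to a mouse, and p-values measure the spread between these libraries.

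Sparc (ENSMUSG00000018593, chr11:55394500-55423183) encodes SPARC, or osteonectin, a collagen-binding protein that loosens cell adhesion and accompanies collagen through secretion. It was the most abundant member, at 1989, 1261 and 1579 CPM in CTR replicates 1 to 3. In VPA replicates 1 to 4 it stood at 760.0, 568, 747 and 1053 CPM. The highest VPA library, replicate 4, was below the lowest CTR library, replicate 2, so the groups did not overlap. The mean was 1609.8 ± 365 CPM (SD, n = 3) in CTR and 782 ± 201 CPM (SD, n = 4) in VPA, and the two-sided exact permutation test of this difference gave p = 0.0286, the smallest that 3 libraries against 4 allow. On log2 CPM in place of CPM the same exact permutation test gave p = 0.0571. The edgeR log2 fold change was -1.04 (SE 0.244), which is 2.06 times more in CTR, with an adjusted p of 0.295 over all genes. DESeq2, the tool that the study's methods name, gave an adjusted p of 0.00962. In RNA of whole slices, fewer cells that express a gene and less of its RNA per cell cannot be told apart.

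Smoc2 (ENSMUSG00000023886, chr17:14279506-14404790), which encodes a secreted calcium-binding relative of SPARC, was among the scarcest members in CTR, at 9.46, 6.31 and 11.5 CPM, from 24, 32 and 21 counts. It was listed at 0 in all 4 VPA libraries. Against 3 counts over the VPA group, or 0.408 CPM, the CTR mean of 9.09 ± 2.62 CPM (SD, n = 3) was at least 22.3-fold higher if a 0 is read as counting error alone. The exact permutation test gave p = 0.0286, the adjusted p was 0.331 with edgeR and 0.0104 with DESeq2. Smoc2 passed the filter on low counts through the CTR libraries alone, so it could enter the test only by being higher there, and these values and its place among the 3 lower members are no independent support.

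Exact zeros were, however, more frequent than counts of 1 to 3 at this level, in both groups. Of 2605 genes whose mean CTR level lay within 1.5 times that of Smoc2, between 469 and 838 were at 0 in a VPA library, while 58 to 122 had 1 to 3 counts. In a CTR library 94 to 234 of them were at 0 and 5 to 25 had 1 to 3 counts, and as the genes were chosen by their CTR level these numbers cannot be set against those of VPA. All 4 VPA libraries were at 0 for 105 of these genes, or 4.03%. The zeros thus exceeded the smallest counts severalfold, and the bound on Smoc2 holds only if its zeros came from counting. Whether the authors' transcript assembly set low genes to 0 was not tested.

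Tnc (ENSMUSG00000028364, chr4:63959785-64047015) encodes tenascin-C, an anti-adhesive glycoprotein of healing wounds that is scarce in resting adult tissue. Its CTR levels were close to each other, at 54.4, 59.9 and 51.0 CPM. In VPA replicates 1 to 4 they were 20.9, 28.3, 19.3 and 28.7 CPM. Each VPA library lay far below the lowest CTR library, and neither group had a library that stood apart. The means were 55.1 ± 4.51 CPM (SD, n = 3) and 24.3 ± 4.90 CPM (SD, n = 4), with p = 0.0286 in the exact permutation test. The edgeR log2 fold change of -1.18 (SE 0.239), 2.26 times more in CTR, had the smallest SE of the 10, and its adjusted p was 0.244. DESeq2 gave an adjusted p of 0.0375.

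Postn (ENSMUSG00000027750, chr3:54361109-54391037) encodes periostin, a fasciclin-domain protein that binds tenascin-C and integrins. It had 16.9, 10.1 and 20.3 CPM in CTR and 9.14, 2.77, 16.1 and 17.4 CPM in VPA. VPA replicates 3 and 4 lay among the CTR libraries, VPA replicates 1 and 2 below all of them. The log2 fold change was -0.49 (SE 0.676) with an edgeR adjusted p of 0.944, and the exact permutation test gave p = 0.371. It was -1.34 with limma-voom, -1.01 with the replicate block by replicate number and -0.14 without VPA replicate 2.

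Aebp1 (ENSMUSG00000020473, chr11:5861947-5872088) encodes a collagen-binding carboxypeptidase-like protein made by activated stellate cells. It stood at 54.4, 32.7 and 40.6 CPM in CTR, from 138, 166 and 74 counts. In VPA replicates 1 to 4 it stood at 20.2, 0, 0 and 38.5 CPM, from 31, 0, 0 and 51 counts. The VPA libraries therefore split, with replicates 2 and 3 listed at 0 and replicate 4 inside the CTR range. The fitted log2 fold change of -1.55 had an SE of 1.40, with an adjusted p of 0.898 in edgeR and 1.0 in DESeq2, and the exact permutation test gave p = 0.0857. Its size moved by over 1.5 times, to -2.69 without VPA replicate 4, -4.95 with limma-voom, -4.76 with the replicate block by replicate number and -4.23 with that by slice culture. The paper, whose methods name DESeq2, lists Aebp1 among the genes lower with VPA, without a stated threshold. The DESeq2 fit made here did not call it, and the reason for this difference was not tested. Of 2593 genes whose mean CTR level was within 1.5 times that of Aebp1, 125 (4.82%) were at 0 in 2 or more of the 4 VPA libraries. In a VPA library 80 to 222 of these genes were at 0 and 3 to 13 had 1 to 3 counts. This comparison of zeros, like the one for Smoc2, was added after the zeros had been seen.

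**Figure D1:**
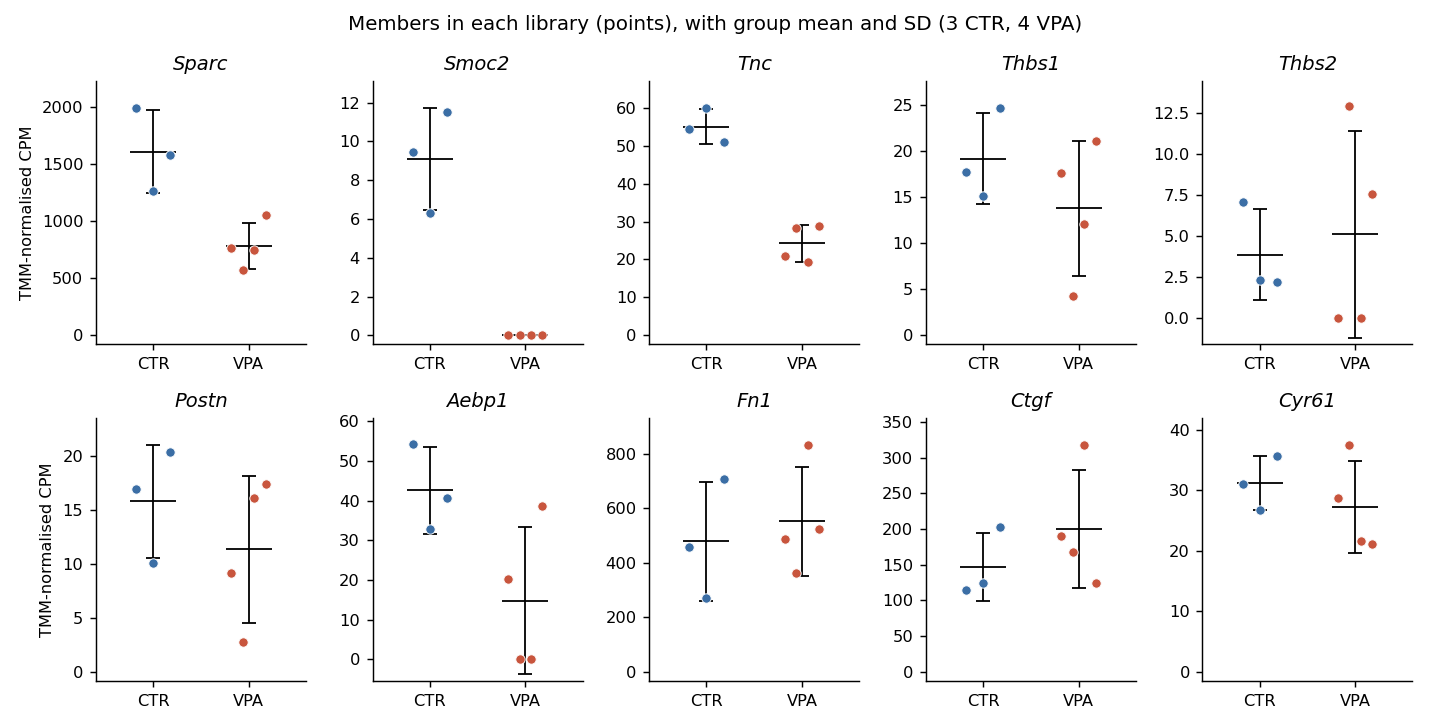
Level of each member in TMM-normalised CPM (linear axis, one panel per gene) for the 3 CTR libraries (blue points) and the 4 VPA libraries (red points), with the group mean (horizontal line) and SD (bars). Sparc, Smoc2 and Tnc are the panels without overlap between the groups, and the red points of Aebp1 run from 0 to 38.5 CPM.

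Thrombospondins are large calcium-binding glycoproteins that bind CD36, CD47 and integrins, and thrombospondin-1 can release TGF-beta from its latent form. Thbs1 (ENSMUSG00000040152, chr2:118111876-118127133) stood at 17.7, 15.2 and 24.7 CPM in CTR. In VPA it stood at 17.6, 4.30, 12.0 and 21.1 CPM. Replicates 1 and 4 lay among the CTR libraries, replicate 3 below all of them and replicate 2 far below. The log2 fold change was -0.48 (SE 0.573), with an edgeR adjusted p of 0.933 and p = 0.343 in the exact permutation test. It was -1.21 with limma-voom, -0.95 and -0.86 with the replicate blocks by replicate number and slice culture, and -0.17 without VPA replicate 2.

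Thbs2 (ENSMUSG00000023885, chr17:14665500-14694235) was the scarcest member in CTR, at 7.09, 2.37 and 2.19 CPM from 18, 12 and 4 counts. Its VPA values were 0, 12.9, 0 and 7.55 CPM from 0, 42, 0 and 10 counts. Replicates 2 and 4 were above all CTR libraries and replicates 1 and 3 were listed at 0, so the VPA group spanned the whole CTR group. The log2 fold change of 0.43 had an SE of 1.54, the edgeR adjusted p was 0.974 and the exact permutation test gave p = 0.771. Its direction turned with limma-voom (-0.07) and with the replicate block by replicate number (-2.08). With a library left out the log2 fold change ranged from 0.13 to 1.16 where it could be tested. The difference in mean CPM turned from 1.233 to -1.366 without VPA replicate 2.

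Fn1 (ENSMUSG00000026193, chr1:71585520-71653200) was the next most abundant member after Sparc, at 459, 271 and 707 CPM in CTR. VPA replicates 1 to 4 had 488, 363, 833 and 526 CPM. The libraries of the groups interleaved, and within CTR the highest library had more than 2 times the level of the lowest. The means were 479 ± 218 CPM (SD, n = 3) and 552 ± 199 CPM (SD, n = 4), the log2 fold change was 0.21 (SE 0.38), the edgeR adjusted p was 0.955 and the exact permutation test gave p = 0.629. Its sign turned when CTR replicate 2 (-0.09) or VPA replicate 3 (-0.07) was left out. The hepatocyte markers, genes of another source of fibronectin, also differed among libraries of the same group, with a summed level of 5674 to 17260 CPM in CTR and 4268 to 14860 CPM in VPA. CTR replicate 2 had the lowest Fn1 and the lowest hepatocyte sum of the CTR group, and VPA replicate 3 the highest of both in the VPA group, while the lowest VPA library was replicate 2 for Fn1 and replicate 4 for the markers. The part of hepatocytes in the Fn1 values was not tested.

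Ctgf (ENSMUSG00000019997, chr10:24595442-24598683), whose product CTGF promotes matrix production, stood at 115, 124 and 202 CPM in CTR. It stood at 190.0, 168, 318 and 125 CPM in VPA, with replicate 3 above all CTR libraries and replicates 1, 2 and 4 inside their range. The log2 fold change was 0.44 (SE 0.35), with an edgeR adjusted p of 0.863 and p = 0.457 in the exact permutation test. It was 0.13 without VPA replicate 3, 0.28 without CTR replicate 1 and 0.71 without CTR replicate 3. The gene overlaps Gm15270 on the other strand, which had 17 counts, all in CTR replicate 2.

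Cyr61 (ENSMUSG00000028195, chr3:145646976-145649981), whose product CYR61 binds integrins on fibroblasts, stood at 31.1, 26.8 and 35.6 CPM in CTR. In VPA it stood at 28.7, 37.5, 21.7 and 21.1 CPM. VPA replicates 3 and 4 lay below the CTR libraries, replicate 2 above them and replicate 1 among them. The log2 fold change was -0.18 (SE 0.303), with an edgeR adjusted p of 0.949 and p = 0.486 in the exact permutation test. It was -0.04 with limma-voom, -0.38 without VPA replicate 2 and -0.08 without VPA replicate 4.

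All 10 members entered the test over 10876 genes, and 7 had a negative log2 fold change with VPA, with a median of -0.49, which was -1.10 with limma-voom, -1.11 with the replicate block by replicate number and -0.77 with that by slice culture. Over all genes tested the median was -0.06 and 54.2% were lower. With edgeR 0 members had an adjusted p under 0.05 in the lower direction, against 0.0% of all genes. At an unadjusted p under 0.05 edgeR gave 3 members lower (Sparc, Smoc2 and Tnc), where 4.62% of all genes were lower by that rule. It gave 0 members higher, where 397 of the 10876 genes were higher. All VPA libraries were below all CTR libraries in the same 3 members, and in 7.41% of all genes. DESeq2 called these 3 lower and no other member, where it called 0.754% of its 15261 genes lower, and limma-voom called 0 members. No member was higher in every VPA library than in every CTR library, and the share of all genes that were so was not computed.

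**Figure D2:**
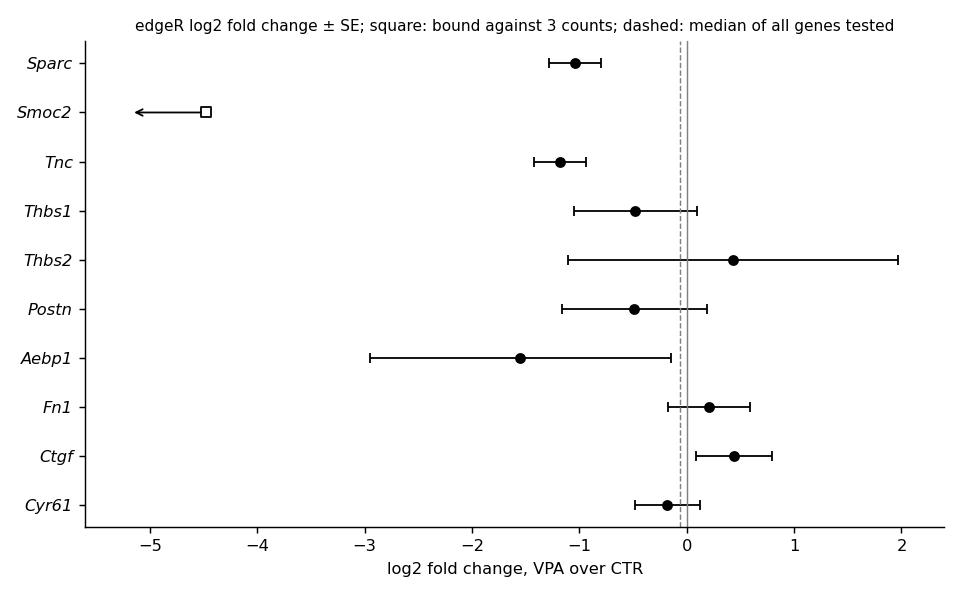
Log2 fold change of VPA over CTR for each member from edgeR (points) with its SE (bars); the solid line marks 0 and the dashed line the median of all genes tested (-0.06). Smoc2 is drawn as a bound (square with arrow) at 3 counts over the VPA group, and Sparc (-1.04) and Tnc (-1.18) have the narrowest errors among the lower members.

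The slice culture numbers in the labels (71, 72 and 74) each name 1 CTR and 1 VPA library, and VPA replicate 1, of number 73, has no CTR library. What this number stands for is not stated. Within these 3 pairs Sparc was lower with VPA by a similar amount each time, with log2 differences of -1.08, -0.92 and -1.15. Tnc differed by -1.37, -0.90 and -1.06 on the same scale. Aebp1 was lower in all 3 pairs, from 40.6 to 0 CPM, from 54.4 to 38.5 CPM and from 32.7 to 0 CPM. Fn1 was higher with VPA in all 3 pairs, by 0.24, 0.19 and 0.42 on the log2 scale, and so was Ctgf, by 0.65, 0.11 and 0.44. With 3 pairs no permutation test can reach the threshold, and none was made. Thbs1 and Postn were lower in 2 of 3 pairs, Cyr61 in 2 and Thbs2 in 1.

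**Figure D3:**
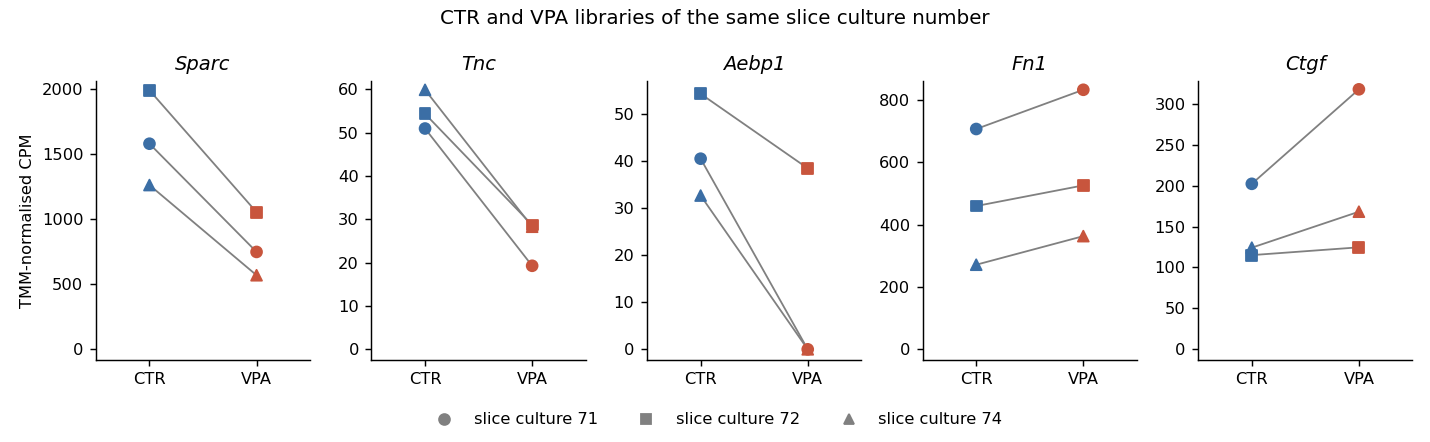
Level in TMM-normalised CPM (linear axis) of 5 members in the CTR and VPA libraries that share a slice culture number (71 circles, 72 squares, 74 triangles, joined by lines). All 3 lines go down for Sparc, Tnc and Aebp1 and up for Fn1 and Ctgf.

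The order of the mean levels differed between the groups in that Cyr61 stood below Tnc and Aebp1 in CTR and above them in VPA, and that Smoc2 and Thbs2 changed places at the low end. In CTR it ran Sparc, Fn1, Ctgf, Tnc, Aebp1, Cyr61, Thbs1, Postn, Smoc2 and Thbs2, and the ranges of Sparc, Fn1 and Ctgf were apart from those of their neighbours. Tnc overlapped with Aebp1, Aebp1 with Cyr61, Thbs1 with Postn, Postn with Smoc2 and Smoc2 with Thbs2. In VPA the ranges of Sparc and Fn1 overlapped, at 568 to 1053 CPM and 363 to 833 CPM, and Ctgf was again apart from Fn1 above it and from Cyr61 below it. From Cyr61 down, each VPA range overlapped that of the next gene. The summed level of the 10 members was 1810 to 2755 CPM in CTR and 1185 to 1967 CPM in VPA. Without Fn1 the other 9 summed to 1538.6 to 2295.6 CPM in CTR and 822.2 to 1311.8 CPM in VPA, without overlap. Without Sparc and Fn1 the other 8 summed to 278 to 388 CPM in CTR and 254 to 387 CPM in VPA.

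A ratio of members within a library removes most of the effect of library size, but with 1 CPM added to both levels it is set by that addition where a member is at 0. The log2 ratio of Sparc to Fn1, taken on CPM + 1, was 2.11, 2.21 and 1.16 in CTR and 0.64, 0.65, -0.16 and 1.00 in VPA. The groups did not overlap, and the means of 1.83 ± 0.58 (SD, n = 3) and 0.53 ± 0.49 (SD, n = 4) differed by -1.30 (exact permutation test, p = 0.0286, or 0.0857 after adjustment over the 3 ratios tested). The ratio of Ctgf to Cyr61 was 2.17 ± 0.31 in CTR and 2.78 ± 0.72 in VPA on the log2 scale, a difference of 0.62 (exact permutation test, p = 0.257, adjusted 0.386), and of 0.28 without VPA replicate 3. That of Thbs1 to Thbs2 differed by -0.18, with VPA libraries from -1.39 to 4.22 (exact permutation test, p = 0.971), and its values of 4.22 and 3.71 came from the VPA libraries with no Thbs2 count. The direction turned with a pseudocount of 0.5 (0.13) and without CTR replicate 3 (0.24), VPA replicate 2 (0.94) or VPA replicate 4 (0.02).

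**Figure D4:**
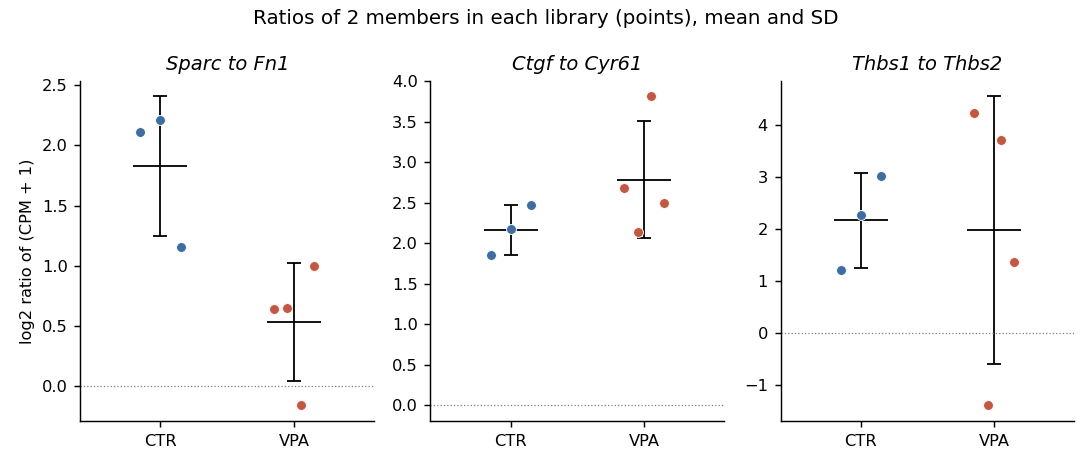
Log2 ratio of 2 members in each library, on CPM + 1, for Sparc to Fn1, Ctgf to Cyr61 and Thbs1 to Thbs2, with CTR points in blue, VPA points in red, and the group mean (line) and SD (bars). The Sparc to Fn1 ratio is the one without overlap, with CTR at 1.16 or more and VPA at 1.00 or less.

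Across the 7 libraries Sparc and the other members were compared by Pearson's r of log2 CPM, as a description of libraries that also share their group and depth. The coefficient with Sparc was 0.886 for Smoc2, 0.817 for Tnc, 0.805 for Aebp1, 0.708 for Thbs1 and 0.698 for Postn. It was 0.187 for Thbs2, 0.0938 for Cyr61, 0.00566 for Fn1 and -0.49 for Ctgf. In all VPA libraries Smoc2 had the same log2 CPM of -0.262, that of a count of 0. Its coefficient therefore largely restates the difference between the groups. Aebp1 had this value in VPA replicates 2 and 3 and Thbs2 in VPA replicates 1 and 3. Among 6394 genes with at least 20 CPM on average, those most like Sparc were Jund (0.991), Ireb2 (0.980), Rab11b (0.978), Gtf3c6 (0.974) and Hmgn1 (0.974). Replicates also shared direction across members, since CTR replicate 2 had the lowest CTR level of 7 members, and VPA replicate 4 the highest VPA level of 5 (Sparc, Tnc, Thbs1, Postn and Aebp1).

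Family relatives of the members were mostly scarce. Of 19 genes, 6 could be tested, 3 lower and 3 higher with a median log2 fold change of -0.14, and Tnn, Thbs4, Comp, Nov, Wisp2 and Wisp3 had no count in any library. Fstl1, a SPARC-family glycoprotein, averaged 148 CPM without and 112 CPM with VPA (log2 fold change -0.39, edgeR adjusted p = 0.793). Cpxm1, a relative of Aebp1, also had zeros, with 28.0, 0 and 20.8 CPM in CTR and 7.55 CPM in VPA replicate 4 against 0 in the other VPA libraries. Smoc1, the paralogue of Smoc2, was not at 0 in any library, with a mean of 13.4 CPM in CTR and 19.0 CPM in VPA (log2 fold change 0.52, edgeR adjusted p = 0.937). Of the 16 receptors, 12 were tested, 9 lower and 3 higher with a median of -0.16, and 0 passed an unadjusted or an adjusted p under 0.05 in edgeR. The integrin subunit Itgb3 averaged 29.0 CPM without and 17.5 CPM with VPA (edgeR adjusted p = 0.728), Itgb5 34.6 and 45.6 CPM (0.837) and Itgav 56.3 and 38.8 CPM (0.848).

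Among the 15 genes of fibronectin assembly and matrix partners 14 were tested, 11 lower and 3 higher with a median log2 fold change of -0.37. Of these 4 were lower at an unadjusted p under 0.05 and 3 had all VPA libraries below all CTR libraries, namely the chains of collagen I and III, where the shares of all genes were 4.62% and 7.41%. Col1a1 averaged 723 CPM in CTR and 229 CPM in VPA (log2 fold change -1.66, SE 0.239, edgeR adjusted p = 0.112), Col1a2 had a log2 fold change of -1.58 (SE 0.304, adjusted p = 0.213) and Col3a1 of -1.51 (SE 0.439, adjusted p = 0.417). DESeq2 called Col1a1 (adjusted p = 4.39e-07) and Col1a2 (adjusted p = 0.000539) lower. Col3a1, which the paper names with Col1a1 among the genes lower with VPA, had a DESeq2 adjusted p of 0.0613. In the fibrillar collagens, a list that shares these 3 genes, 8 of 11 were tested and 7 were lower, with a median of -1.10.

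A list of 16 genes held targets of YAP/TAZ and serum response factor together with the factors Yap1, Wwtr1, Srf, Tead1 and Tead4 themselves. Of these 13 were tested, 11 lower and 2 higher with a median of -0.47, and 2 were lower at an unadjusted p under 0.05, against 4.62% of all genes. Tpm1, an actin-binding tropomyosin, averaged 815 CPM in CTR and 574 CPM in VPA (edgeR adjusted p = 0.575), and Tead1, a TEAD factor, 65.0 and 46.8 CPM (adjusted p = 0.595). Ajuba was listed at 0 in VPA replicates 1 to 3 and stood at 11.3 CPM in replicate 4, against 17.9 to 32.9 CPM in CTR. Of 12 TGF-beta pathway genes, which are ligands, receptors and Smad3 as well as response genes, 11 were tested, 7 lower and 4 higher with a median of -0.23. Skil, a SMAD corepressor, was above all CTR libraries in all VPA libraries (71.5 and 107 CPM on average, log2 fold change 0.58, adjusted p = 0.462), while Pmepa1, a TGF-beta target, averaged 278 and 163 CPM (-0.77, adjusted p = 0.490) and Tgfb2 24.4 and 14.3 CPM (adjusted p = 0.792). Across these 6 lists edgeR gave 0 genes with an adjusted p under 0.05, and DESeq2 gave Col1a1 and Col1a2.

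The cell types that could hold these transcripts were followed by their markers. All 14 stellate cell and fibroblast markers were tested, 9 lower and 5 higher with a median log2 fold change of -0.37, and their summed level was 1461 to 2639 CPM in CTR and 1396 to 2790 CPM in VPA, with overlap. Dcn, chosen here after its level was seen, took 410.4 to 1141 CPM of the sum in CTR and 601.3 to 1797 CPM in VPA. Without Dcn the other 13 markers summed to 1050.0 to 1647 CPM in CTR and 794.6 to 993.1 CPM in VPA, without overlap. Without Dcn and Vim the other 12 summed to 453.7 to 925.4 CPM in CTR and 450.4 to 652.5 CPM in VPA and overlapped again, so whether the sums overlapped was decided by Dcn and Vim. The part of stellate cells in the levels of Sparc, Tnc and Smoc2 was not tested. Vim, which encodes vimentin, was lower in all VPA libraries (655 and 309.7 CPM on average, log2 fold change -1.08, SE 0.201, edgeR adjusted p = 0.193, DESeq2 adjusted p = 0.00162). Lrat, the enzyme that stores retinol in quiescent stellate cells, averaged 45.0 and 19.9 CPM (log2 fold change -1.16, edgeR adjusted p = 0.650), and Lum, a collagen-binding proteoglycan, 21.7 and 39.8 CPM (0.88, adjusted p = 0.660). Of 10 sinusoidal endothelial markers 7 were tested and 6 were lower with a median of -0.61. Their sums of 293.7 to 376.7 CPM in CTR and 114.9 to 282.9 CPM in VPA did not overlap (exact permutation test, p = 0.0571). Stab1 and Cdh5 were the 2 tested markers that were lower in every VPA library, and each was at 0 in 2 VPA libraries. Whether the sums stay apart without these 2 markers was not tested. The part of endothelial cells in the levels of Sparc, Tnc and Smoc2 was not tested. Of 10 macrophage markers 6 were tested, 2 lower and 4 higher, with sums of 246.7 to 361.1 CPM in CTR and 246.5 to 511.3 CPM in VPA, and Adgre1 and Marco were at 0 in all libraries. Platelet markers, relevant because platelets store thrombospondin-1, summed to 34.5 to 60.5 CPM in CTR and 21.2 to 80.1 CPM in VPA, and Ppbp, Gp9 and Treml1 were at 0 in all libraries. Of the 10 hepatocyte markers 9 were tested and 3 were lower, and their summed levels, given with Fn1, were the highest of all the marker lists in every library. Cholangiocyte markers summed to 434.4 to 719.3 CPM in CTR and 276.2 to 786.0 CPM in VPA. Of these 6 markers 5 were tested, 3 lower and 2 higher with a median log2 fold change of -0.16. Among them Cldn4, a tight junction claudin, averaged 156 and 36.1 CPM, and its groups did not overlap (log2 fold change -2.11, SE 0.350, edgeR adjusted p = 0.142, DESeq2 adjusted p = 9.61e-05). Sox9 went the other way, with means of 88.95 CPM in CTR and 116.8 CPM in VPA and overlap (log2 fold change 0.39, edgeR adjusted p = 0.748). The mesothelial markers summed to at most 21.9 CPM in any library.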

How the data were processed

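RNA of 7 mouse PCLS libraries on day 3 of culture was analysed, 3 CTR and 4 VPA. The authors prepared 3′ end libraries, mapped the reads to GRCm38.p6 (mm10) with STAR and assembled genes with StringTie, in versions not given in the sources used here. They deposited raw counts per Ensembl gene, 1 column per library and without normalization. The counting program and its use of strand are not given in the sources used here. Of the 55487 genes, 26086 had a count in at least 1 library. Libraries of a group differed by more than sampling noise, with a chi-square per degree of freedom of 14.7 to 27.3. Each was counted as 1 replicate, though this spread cannot show that they came from separate mice.

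From the counts, R 4.3.3 with edgeR 4.0.16 (TMM, filterByExpr, robust quasi-likelihood test, group as the only term) was run over 10876 genes, and p-values were adjusted after Benjamini-Hochberg, with calls made under 0.05. DESeq2 1.42.0, limma-voom (limma 3.58.1), RLE normalization, other filters (none, or at least 10 counts in every library), a fit without robust estimation, replicate blocks and leaving out each library were alternatives. Single values were compared by two-sided exact permutation tests over 35 arrangements, with Python 3.11.15. Log2 CPM used a prior count of 2 and ratios a pseudocount of 1 CPM. Symbols and coordinates came from GENCODE and promoter windows from RefSeq, which held windows for 6 of the 10 members. The members and gene lists were chosen with earlier results of these data known. Named genes are all members, up to 3 genes per list with the lowest unadjusted p, and the 5 genes most like Sparc. Others named were chosen after their values were seen (Dcn), or for having no count.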

Additional observations from a re-analysis of the deposited data

Results flagged for a closer look

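Over 29 measures of the VPA group, 2 had a library whose gap to the nearest other library took up more of the group's range than Dixon's limit for 4 samples (0.829). Chance alone flags about 5% of groups. The summed level of the fibronectin assembly and matrix partners was 1616 CPM in VPA replicate 4, with a gap of 0.838 of the range above the other 3 VPA libraries. The same library had the highest VPA level of 5 members, Sparc and Tnc among them. The depth of VPA replicate 2, at 3102450 counts on genes, had a gap of 0.932 of the range to the other VPA libraries.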

How the results depend on the processing

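The number of genes called over the whole table was 1 with edgeR, 154 with DESeq2, 10 without a filter on low counts and 36 with at least 10 counts in every library. It was 0 with the replicate block by replicate number and 0 with the replicate block by slice culture, and 0 to 2 when 1 library was left out. Members with an adjusted p under 0.05 numbered 3 with DESeq2 (Sparc, Smoc2 and Tnc) and 0 in every other fit, replicate blocks and left-out libraries included. The filter of at least 10 counts removed Smoc2, Thbs2, Postn and Aebp1, which left 4 members lower. The median log2 fold change of the tested members was -0.49 with edgeR, -1.10 with limma-voom, -1.11 with the replicate block by replicate number, -0.77 with that by slice culture and -0.78 to -0.29 with a library left out. Thbs2 turned to -0.07 with limma-voom and to -2.08 with the replicate block by replicate number, and its exact permutation p on log2 CPM was 0.829, with the direction turned. Without VPA replicate 2 or 4 it could not be tested. Fn1 ranged from -0.09 to 0.57 with a library left out. The Thbs1 to Thbs2 ratio turned to 0.13 with a pseudocount of 0.5 and ranged from -0.93 to 0.94 with a library left out. For these turns the cause was not tested. Sparc (-1.22 to -0.87) and Tnc (-1.27 to -1.09) kept their direction whichever library was left out. Ctgf (0.13 to 0.71), Cyr61 (-0.38 to -0.08), Thbs1 (-0.78 to -0.17) and Postn (-0.78 to -0.14) kept theirs too, and moved by over 1.5 times. Smoc2, Thbs1, Thbs2 and Postn had at most 77 counts in any library, which limits the test for them. What the numbers in the labels mark is not stated. Deviations from the group means correlated at 0.026 to 0.107 within slice cultures and at -0.054 to 0.107 within replicate numbers, and not every library correlated best with its own number. No pairing was assumed, though such correlations cannot exclude it. With the replicate block by slice culture the SE of Fn1 was 0.12 in place of 0.38, and its log2 fold change was 0.28 with an edgeR adjusted p of 0.634. The SE was also smaller for Sparc (0.12 in place of 0.244) and Ctgf (0.16 in place of 0.35), and slightly so for Postn. It was larger for Smoc2 (2.35 in place of 1.46), Aebp1, Thbs2 and Cyr61, and changed little for Tnc and Thbs1.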
